A study of Mus musculus with 8 samples.

Results

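Guanylate-binding proteins (GBPs) are large interferon-inducible GTPases. The 8 genes described here, Gbp2 to Gbp9, were chosen by their symbols among 15521 genes in the table of a bulk RNA-seq study of alveolar macrophages, which are the phagocytes that live in the airspaces of the lung, here of mice. All 8 passed the filter on low counts and are among the 11621 genes tested. The cells came from bronchoalveolar lavage, were selected by 2 h of adherence and were kept in 10 ng/ml GM-CSF, so every group carries GM-CSF. They received DMSO (vehicle) or 10 µM MSDC for 2 h and were then left without Poly(I:C) or given 5 µg/mL of it, for 24 h per the sample labels and overnight per the series description. This gives 4 groups of 2 libraries, called vehicle and MSDC where no Poly(I:C) was added, and Poly(I:C) with vehicle or with MSDC where it was. Poly(I:C) is a synthetic double-stranded RNA that mimics viral RNA. MSDC is the name prefix of a set of coded compounds known as modulators of mitochondrial pyruvate import, and the labels do not name the one used. The labels' strain field repeats the treatment, and the strain, sex and age of the mice are not given either. Nothing says whether the libraries of a group came from separate animals or cultures, so the p-values rest on a spread between libraries that may be purely technical.

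GBP genes are switched on by type I and type II interferons through transcription factors that bind the ISRE and GAS elements of promoters. The proteins assemble on the membranes of vacuoles that hold pathogens and on bacteria in the cytosol, and they help to expose microbial ligands to the caspase-11 and AIM2 inflammasomes. Gbp2 and Gbp5 end in a motif for prenylation, the attachment of a lipid anchor. In the airways, alveolar macrophages are early responders to viral RNA and to interferon.

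The 8 genes lie in 2 clusters (GENCODE, GRCm38). Gbp5, Gbp7, Gbp3 and Gbp2 lie in this order on the plus strand of chromosome 3, from 142493978 to 142638008. Gbp8, Gbp9, Gbp4 and Gbp6 lie on the minus strand of chromosome 5, from 105014150 to 105293698, where the gene models of Gbp8, Gbp9 and Gbp4 overlap. RefSeq's promoter table (GRCm38.p6) held entries for 4 of the 8 members, Gbp2, Gbp3, Gbp5 and Gbp7, and none for Gbp4, Gbp6, Gbp8 and Gbp9. These 4 upstream sequences are shown because their genes all rose with Poly(I:C) and all hold a match to the ISRE core, which is in capitals. They are written 5′ to 3′ on the plus strand and end before the RefSeq start used here. For Gbp5 a GENCODE transcript starts farther upstream, at 142493978, so its stretch lies within that gene model.
Gbp2 (chr3:142620413-142620616): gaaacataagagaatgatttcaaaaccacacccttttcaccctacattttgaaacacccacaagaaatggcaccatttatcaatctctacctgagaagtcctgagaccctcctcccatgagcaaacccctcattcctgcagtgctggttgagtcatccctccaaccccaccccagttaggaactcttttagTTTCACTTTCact
Gbp5 (chr3:142496684-142496914): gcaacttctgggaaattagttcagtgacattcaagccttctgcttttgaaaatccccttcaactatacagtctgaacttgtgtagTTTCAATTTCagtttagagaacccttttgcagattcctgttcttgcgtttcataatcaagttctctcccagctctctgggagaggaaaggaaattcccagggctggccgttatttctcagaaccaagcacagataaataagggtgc
Gbp7 (chr3:142530086-142530335): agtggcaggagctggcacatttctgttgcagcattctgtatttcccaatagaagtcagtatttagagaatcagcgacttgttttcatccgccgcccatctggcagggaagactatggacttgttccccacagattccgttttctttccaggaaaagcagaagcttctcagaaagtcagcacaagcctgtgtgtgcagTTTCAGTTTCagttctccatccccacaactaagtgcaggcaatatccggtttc
Gbp3 (chr3:142559794-142560015): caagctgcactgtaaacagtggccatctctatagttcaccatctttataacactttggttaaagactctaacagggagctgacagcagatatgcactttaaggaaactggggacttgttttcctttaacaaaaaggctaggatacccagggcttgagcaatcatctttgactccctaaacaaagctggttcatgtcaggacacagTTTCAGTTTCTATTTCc

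In all, 3 kinds of motif were searched on both strands of the 250 bases upstream of each RefSeq start, and all were chosen with these promoter sequences in view, the last after its match in Gbp5 had been seen. The ISRE core (GAAA, any 2 bases, then GAAA again, read on the other strand as TTTC, any 2 bases, TTTC) lay at -59 to -50 from the RefSeq start in Gbp2, -165 to -156 in Gbp5 and -53 to -44 in Gbp7. Gbp3 had overlapping matches at -45 to -36 and -39 to -30, and its second RefSeq start had none. The match of Gbp2 lies in the first exon of a GENCODE transcript that starts at 142620602. This core was found in 2.98% of 32851 windows of the same length. The GAS letters (TTCNNNGAA) occurred 2 times in Gbp5 and 2 times in Gbp7, against 7.02% of all windows with a match, and a match to the NF-kB consensus occurred 1 time in Gbp5, against 7.25%. A match describes letters only, and binding was not measured here.

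**Figure D1:**
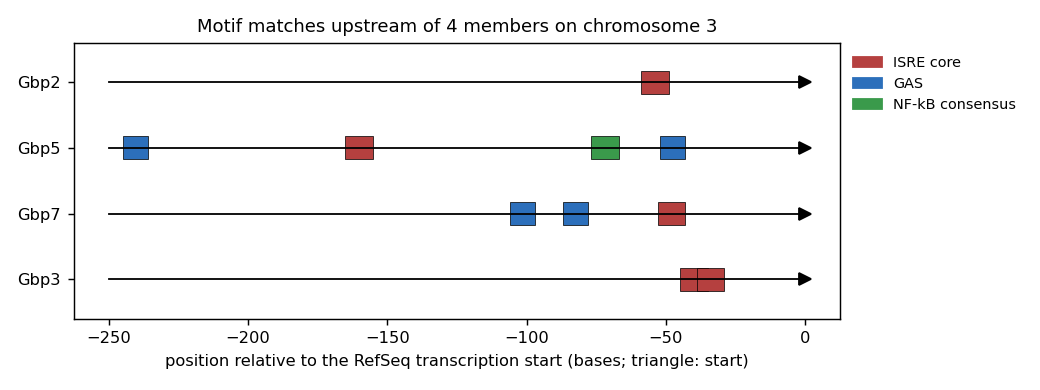
Positions of motif matches in the 250 bases upstream of the RefSeq start of Gbp2, Gbp5, Gbp7 and Gbp3 (first start), in bases relative to the start; colours give the motif. Each line has at least 1 ISRE core match, and GAS matches are seen in Gbp5 and Gbp7.

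Libraries held 28762425 to 29493223 counts, and 3 counts correspond to 0.102 to 0.104 CPM, counts relative to library size (TMM-adjusted where a gene's level is given). This floor covers counting error only. All 12 alveolar macrophage markers were detected, with a summed level of 11302 to 14120 CPM. Of 6 T cell markers 5 were in the table, and of 6 NK cell markers 3. The sum of each list stayed under 1 CPM, with Nkg7 at 0. The vehicle libraries differed most from each other, with a chi-square per degree of freedom of 15.2 against 4.35 to 6.49 in the other groups.

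Levels of different members are compared per gene length, in the TPM deposited by the authors. In vehicle, Gbp2 was the most abundant member at 17.6 ± 1.16 TPM (SD, n = 2), followed by Gbp7 at 13.9 ± 0.587 TPM. Gbp8, Gbp3 and Gbp6 followed at 4.99, 4.59 and 4.23 TPM, where neighbours overlapped between libraries. Gbp5 stood at 1.49 TPM, Gbp9 at 0.73 TPM and Gbp4 at 0.095 TPM. With Poly(I:C) in vehicle the order was Gbp2 (98.1 TPM), Gbp6 (66.5 TPM), Gbp7 (41.0 TPM) and Gbp3 (37.6 TPM). Gbp9 at 16.4 TPM and Gbp5 at 16.1 TPM overlapped, and Gbp8 at 13.1 TPM and Gbp4 at 3.28 TPM came last. Gbp2 thus led in both groups, while Gbp6, which came second with Poly(I:C), was not told apart from Gbp8 and Gbp3 in vehicle.

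**Figure D2:**
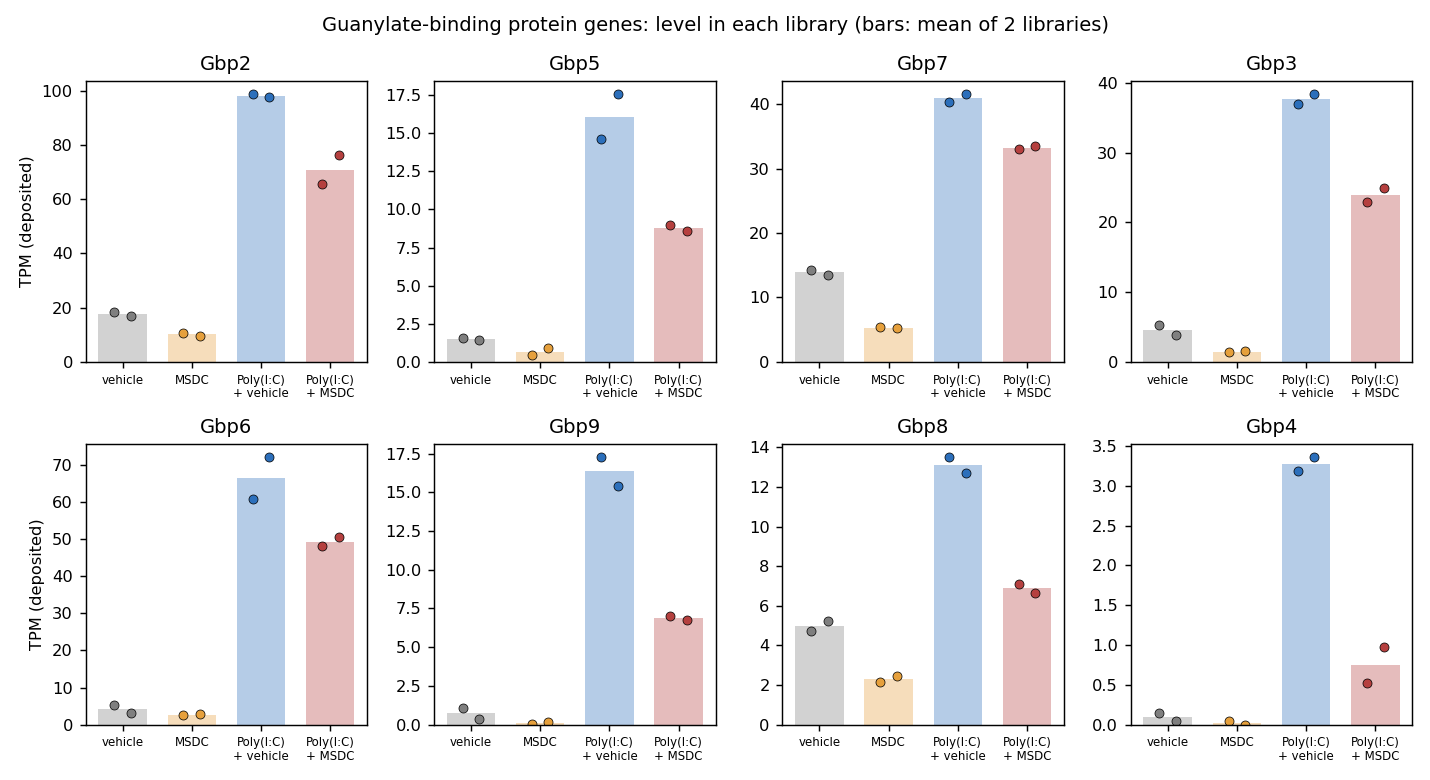
TPM of each gene in each of the 8 libraries (points) with the mean of 2 libraries (bars), each panel on its own linear axis from 0. In every panel both Poly(I:C) groups lie above both unstimulated groups, and with Poly(I:C) the MSDC libraries lie below the vehicle libraries.

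The summed TPM of the family was 47.6 ± 4.54 in vehicle, 22.7 ± 0.156 in MSDC, 292 ± 9.47 with Poly(I:C) and vehicle, and 200.7 ± 10.4 with Poly(I:C) and MSDC (SD, n = 2). The share of Gbp6 in that sum was 8.88% in vehicle and 22.8% with Poly(I:C), and that of Gbp7 was 29.1% and 14.0%. In MSDC the order was Gbp2 (10.1 TPM), Gbp7 (5.31 TPM), Gbp6 (2.71 TPM), Gbp8 (2.15 and 2.44 TPM in the 2 libraries), Gbp3 (1.46 TPM) and Gbp5 (0.655 TPM), with Gbp9 and Gbp4 overlapping at 0.105 and 0.02 TPM. With Poly(I:C) and MSDC it was Gbp2 (70.8 TPM), Gbp6 (49.4 TPM), Gbp7 (33.3 TPM), Gbp3 (24.0 TPM) and Gbp5 (8.79 TPM), then Gbp8 and Gbp9, both at 6.90 TPM, and Gbp4 at 0.745 TPM. The first 4 places were thus held by the same members in both Poly(I:C) groups.

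**Figure D3:**
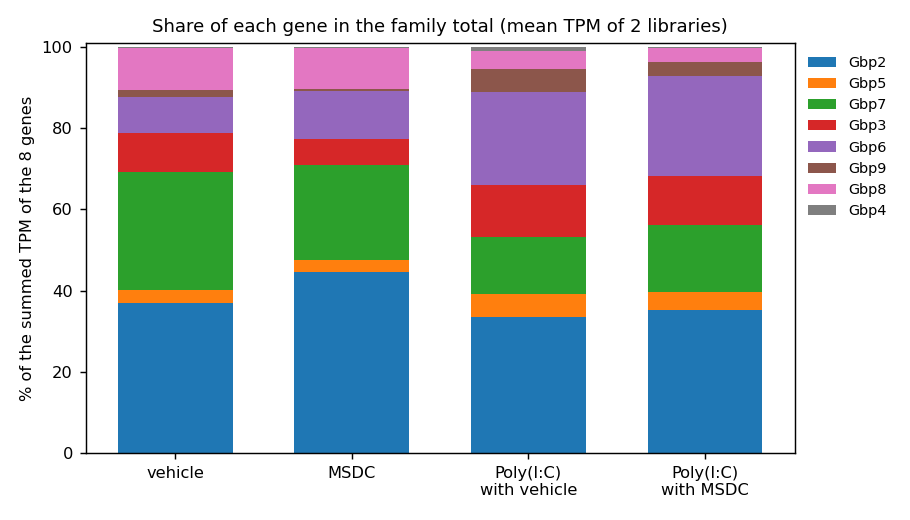
Share of each gene in the summed TPM of the 8 genes, from the mean of 2 libraries in each of the 4 groups. Gbp2 takes 33.6 to 44.6% in every group, and the Gbp6 segment is larger in both Poly(I:C) groups.

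Sequence similarity limits how far some members can be told apart. Of the 50-base words of the Gbp6 transcripts, 70.7% also occur in another gene, 45.9% in Gbp10 and 65% in Gm43302, so the values of Gbp6 are uncertain as to their source. The share was 18.1% for Gbp8, 12.7% for Gbp7 and 1.44 to 8.05% for the other members. The sources used here do not say how the authors assigned reads with several matches, or whether strand was used.

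Poly(I:C) was first compared with no stimulus in vehicle-treated cells. The 7 GBP genes other than Gbp4 rose, against 7.52% of all tested genes that were higher, and their median log2 fold change was 3.11, against 0.000 over all tested genes (edgeR's quasi-likelihood test, adjusted by Benjamini-Hochberg over all tested genes). Their changes ran from 1.51 for Gbp8 to 4.47 for Gbp9. Gbp4 passed the filter on low counts through the Poly(I:C) groups alone, so it had to be higher there and is left out of this count and median. Libraries of the groups did not overlap for these 7, which also held in this direction for 25.6% of tested genes.

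Among the prenylated members, Gbp2, which coats Toxoplasma vacuoles and cytosolic bacteria, had 22.4 and 21.0 CPM in the vehicle libraries and 127 and 125 CPM with Poly(I:C). It rose by 2.54 on the log2 scale (SE 0.08, adjusted p = 5.35e-12). Gbp5, which is needed with Gbp2 for AIM2 activation by Francisella, had 2.34 and 2.18 CPM in vehicle and 23.3 and 27.8 CPM with Poly(I:C). Its log2 fold change was 3.50 (SE 0.18, adjusted p = 8.50e-10). Both genes were low in both vehicle libraries and high in both stimulated ones.

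Gbp7, known for a part in the assembly of the phagocyte oxidase, had 40.3 and 39.1 CPM in vehicle and 120.9 and 123.2 CPM with Poly(I:C), a log2 fold change of 1.62 (SE 0.07, adjusted p = 5.76e-11). Gbp6 had 11.4 and 7.20 CPM in vehicle and 140.3 and 165.1 CPM with Poly(I:C), a log2 fold change of 4.04 (SE 0.14, adjusted p = 1.04e-11). Gbp3, whose protein gathers on Toxoplasma vacuoles, had 6.86 and 5.18 CPM against 51.1 and 52.8 CPM, with a log2 fold change of 3.11 (SE 0.12, adjusted p = 3.20e-11). Of these 3 genes Gbp6 had the largest fold change and Gbp7 the smallest.

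Gbp9, another protein of these vacuoles, had 2.48 and 0.925 CPM in the vehicle libraries and 37.2 and 37.9 CPM with Poly(I:C). Its log2 fold change was 4.47 (SE 0.27, adjusted p = 5.08e-09), and 5.34 without vehicle library 1. Gbp8 had 5.71 and 6.90 CPM in vehicle and 18.9 and 17.1 CPM with Poly(I:C), a log2 fold change of 1.51 (SE 0.14, adjusted p = 1.03e-06). Gbp4 had 8 counts in the vehicle group and 333 with Poly(I:C), a ratio of 41.8 (95% counting interval 21 to 97.6). As a description, its fitted log2 fold change was 5.39 (SE 0.45), 7.28 without vehicle library 1 and 4.59 without vehicle library 2.

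The same question in MSDC-treated cells gave the same direction. The same 7 genes rose, against 4.82% of tested genes, with a median of 3.73 against 0.002 over all tested genes, and their libraries did not overlap (25.9% of tested genes). Gbp2 went from 13.1 and 12.3 CPM to 82.6 and 95.2 CPM (log2 fold change 2.81, SE 0.09), and Gbp5 from 0.654 and 1.39 CPM to 14.1 and 13.2 CPM (3.73, SE 0.21). Gbp7 went from 15.6 and 15.3 CPM to 97.1 and 96.8 CPM (2.65, SE 0.07), and Gbp3 from 1.82 and 2.13 CPM to 31.4 and 33.4 CPM (4.03, SE 0.14). Both genes had close replicates in each group.

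In the chromosome 5 cluster, Gbp6 went from 5.85 and 6.32 CPM to 109 and 112.5 CPM with Poly(I:C) under MSDC (log2 fold change 4.18, SE 0.15), and Gbp8 from 2.72 and 3.41 CPM to 9.50 and 8.59 CPM (1.56, SE 0.16). Gbp9 went from 0.034 and 0.473 CPM to 15.4 and 17.4 CPM (5.98, SE 0.39). Adjusted p-values of the 7 members other than Gbp4 lay between 7.44e-13 and 5.13e-06. The 2 MSDC libraries, with 1 and 14 counts, thus differed widely for Gbp9, and its change was 5.09 without MSDC library 1 and 8.72 without MSDC library 2. That of Gbp5 was 4.37 without MSDC library 2. Gbp4 had 1 count in MSDC and 68 with Poly(I:C), a ratio of 68.4 (95% counting interval 11.9 to 2740). Its fitted change was 5.80, 8.11 without MSDC library 1 and 4.94 without MSDC library 2.

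**Figure D4:**
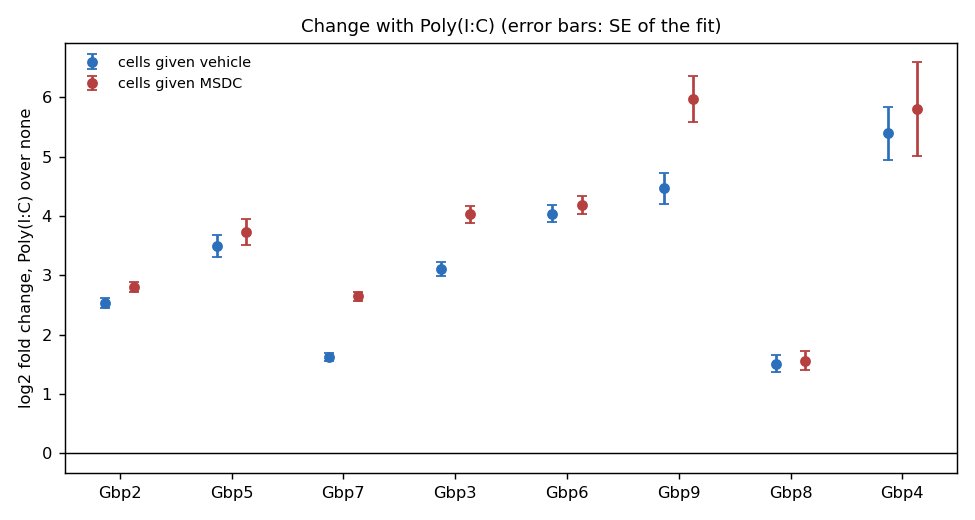
Log2 fold change with Poly(I:C) for each gene (y axis) in cells given vehicle (blue) or MSDC (red), with the standard error of the fit. All points lie above 0, from 1.51 (Gbp8, vehicle) to 5.98 (Gbp9, MSDC).

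MSDC alone was compared with vehicle in cells without Poly(I:C). In all, 7 of the 8 members fell, Gbp2, Gbp3 and Gbp5 to Gbp9, against 12.4% of tested genes that were lower. The median was -1.25 over all 8 members and -0.002 over all tested genes. It was -1.14 without Gbp4, which lay under the filter's cutoff in both groups compared here. The same 7 of 8 did not overlap between groups (28.7% of tested genes). Fewer cells of a type and less RNA per cell cannot be told apart in bulk samples. Gbp7 fell by 1.36 on the log2 scale (SE 0.07, adjusted p = 1.48e-09), from 40.3 and 39.1 to 15.6 and 15.3 CPM. Gbp3 fell by 1.60 (SE 0.17, adjusted p = 2.53e-06), Gbp2 by 0.77 (SE 0.09, adjusted p = 1.16e-05) and Gbp8 by 1.04 (SE 0.17, adjusted p = 1.88e-04). These 4 genes were lower in both MSDC libraries than in either vehicle library, and their calls held in each of the 18 other fits tried, as did that of Gbp9.

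The size of the change in Gbp9, and the calls of Gbp5 and Gbp6, changed when single libraries were left out. Gbp9 fell by 2.71 (SE 0.57, adjusted p = 0.00216), and its value was -1.84 without vehicle library 1 or without MSDC library 1, and -5.47 without MSDC library 2. Gbp5 fell by 1.14 (SE 0.27, adjusted p = 0.0054), its value was -1.80 without MSDC library 2, and its adjusted p was 0.0856 without MSDC library 1. Gbp6 fell by 0.60 (SE 0.17, adjusted p = 0.0182), and its call was lost without vehicle library 1 (-0.24, adjusted p = 0.31), MSDC library 1 (-0.56, adjusted p = 0.109) or MSDC library 2 (-0.68, adjusted p = 0.0543), as well as with DESeq2 (0.0648). Gbp4 was not called (-2.70, adjusted p = 0.152), with 8 counts in vehicle and 1 in MSDC. It was called without vehicle library 2 (-3.50, adjusted p = 0.0288), and not without vehicle library 1 (-0.81, adjusted p = 0.828), MSDC library 1 (-5.02, adjusted p = 0.168) or MSDC library 2 (-1.85, adjusted p = 0.48).

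The libraries at rest that stood apart for these genes did so elsewhere too. Vehicle library 1 was above vehicle library 2 by 2.68-fold for Gbp9, 1.58-fold for Gbp6 and 1.32-fold for Gbp3, and by 1.80-fold for Usp18 and 1.41-fold for Irf9, but Gbp8 was 1.21-fold higher in library 2. MSDC library 2 was above MSDC library 1 by 2.12-fold for Gbp5 (41 against 19 counts). For Gbp9 the ratio was 13.7 (0.473 against 0.034 CPM), but it rests on 14 against 1 counts, the latter under the floor of 3 counts. With vehicle library 1 and MSDC library 2 both left out of the fit, an alternative chosen after seeing the data, 6 members fell. Gbp6 was then at -0.32 (adjusted p = 0.318) and Gbp4 at 0.04.

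With Poly(I:C) present, all 8 members were lower with MSDC than with vehicle, against 13.6% of tested genes, with a median of -0.79 and -0.002 over all tested genes. Gbp4 lay above the filter's cutoff in both groups compared here, and without it the median of the other 7 was -0.68. No member's libraries overlapped (31.8% of tested genes). Gbp4 fell most, from 5.47 and 6.16 to 1.08 and 1.29 CPM (log2 fold change -2.29, SE 0.32, adjusted p = 5.10e-05). Gbp9 went from 37.2 and 37.9 to 15.4 and 17.4 CPM (-1.20, SE 0.20, adjusted p = 2.66e-04). Both lie in the chromosome 5 cluster, as do Gbp8, at -0.99 (SE 0.13, adjusted p = 3.35e-05), and Gbp6, which changed less, at -0.46. Gbp5 fell by 0.91 (SE 0.15), Gbp3 by 0.68 (SE 0.10) and Gbp2 by 0.50 (SE 0.08), with adjusted p-values of 1.78e-04, 9.17e-05 and 1.07e-04. Gbp7 changed least, from 120.9 and 123.2 to 97.1 and 96.8 CPM (-0.33, SE 0.06, adjusted p = 9.05e-04).

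Gbp6 fell by 0.46 with MSDC under Poly(I:C) (SE 0.11, adjusted p = 0.00647). That call was lost without the second library of Poly(I:C) with vehicle (-0.34, adjusted p = 0.0951) and without the first of Poly(I:C) with MSDC (-0.44, adjusted p = 0.0684), and with DESeq2 (adjusted p = 0.142). The call of Gbp9 was lost with DESeq2 (adjusted p = 0.421). Every member was thus lower with MSDC in this comparison, while Gbp6 and Gbp9 did not pass in each of these fits.

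**Figure D5:**
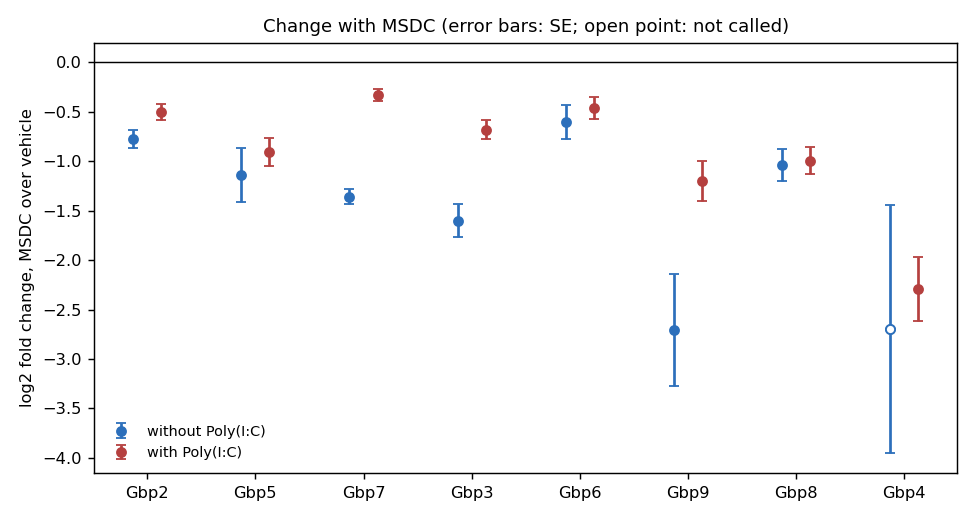
Log2 fold change with MSDC for each gene (y axis) without Poly(I:C) (blue) and with it (red), with the standard error of the fit; the open point was not called. All points lie below 0, and the pair of Gbp7 is at -1.36 and -0.33.

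Markers of other cells moved with MSDC. Of 7 neutrophil markers 4 were in the table, and their sum was 37.6 to 40.8 CPM in vehicle, 12.3 to 16.8 in MSDC, 45.1 to 47.7 with Poly(I:C) and vehicle, and 14.0 to 24.4 with Poly(I:C) and MSDC. Mmp8 made up most of it, at 29.2 to 33.6 CPM in vehicle and 4.10 to 6.22 CPM in MSDC, while S100a8 was at 4.01 and 5.32 CPM in vehicle and 6.44 and 7.74 CPM in MSDC. The 5 monocyte or dendritic cell markers summed to 6.11 to 6.76 CPM in vehicle, 1.76 to 2.31 in MSDC, 6.55 to 7.07 with Poly(I:C) and vehicle, and 1.78 to 2.89 with Poly(I:C) and MSDC, and 3 of them stayed under 1 CPM in all libraries. The 3 endothelial markers summed to 2.01 to 2.82, 0.744 to 0.964, 3.10 to 3.57 and 0.873 to 1.15 CPM in the same order of groups. The 12 alveolar macrophage markers summed to 14000 to 14120, 11771 to 11844, 12162 to 12543 and 11302 to 11628 CPM, but single markers moved in opposite directions. Chil3, which makes up most of the sum with Itgax and Plet1, was at 6366 and 6601 CPM in vehicle and 3688 and 3647 CPM in MSDC, and Plet1 at 2260 and 2329 against 1590 and 1525 CPM. Ear1 was at 38.8 and 40.4 CPM in vehicle and 540.1 and 546.8 CPM in MSDC, Krt79 at 5.88 and 7.17 against 97.2 and 91.5 CPM, and Marco at 315.5 and 400.1 against 1019 and 1054 CPM. The 7 epithelial markers summed to 73.6 to 76.9, 56.1 to 63.8, 51.1 to 52.7 and 47.5 to 48.7 CPM, nearly all of it Cdh1, with Sftpc and Sftpb at no more than 0.0352 and 0.0704 CPM, and the 3 fibroblast markers stayed under 1 CPM. The part of these in the MSDC results was not tested.

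The interaction asked whether the response to Poly(I:C) differed with MSDC. Gbp7 alone was called among the 8 members: its response was larger with MSDC by 1.03 on the log2 scale (SE 0.10, adjusted p = 1.58e-04), against 0.12% of tested genes called higher. Its rise was 1.62 in vehicle (39.7 to 122 CPM) and 2.65 in MSDC (15.5 to 96.9 CPM). Both its resting and its stimulated level were thus lower with MSDC. Gbp3 had an interaction of 0.92 (95% interval of the fit 0.50 to 1.35, adjusted p = 0.102) and Gbp9 one of 1.51 (0.14 to 2.88, adjusted p = 0.728), which ran from 0.64 without vehicle library 1 to 4.27 without MSDC library 2. Gbp3 passed with DESeq2 (adjusted p = 0.0258), and both passed without vehicle library 2 (0.00252 for Gbp3 and 0.037 for Gbp9). The other members lay between 0.04 and 0.41, with intervals of 0.01 to 0.53 for Gbp2, -0.42 to 0.90 for Gbp5, -0.30 to 0.58 for Gbp6, -0.41 to 0.50 for Gbp8 and -1.73 to 2.54 for Gbp4. A missed threshold does not show that their responses were alike.

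Summed over the 4 members of each cluster, which does not depend on how reads were split among those members, the chromosome 3 members had 69.7 ± 3.08 CPM in vehicle, 31.2 ± 0.0445 in MSDC, 325.5 ± 4.56 with Poly(I:C) and vehicle and 231.9 ± 9.57 with Poly(I:C) and MSDC (SD, n = 2). The chromosome 5 members had 17.4 ± 3.33, 9.42 ± 1.11, 214.1 ± 17.3 and 137.4 ± 3.35 CPM. The log2 ratio for Poly(I:C) in vehicle was 2.22 on chromosome 3 and 3.62 on chromosome 5, and for MSDC under Poly(I:C) it was -0.49 and -0.64. The sums still depend on reads that Gbp6 shares with Gbp10 and Gm43302, which are not in them. The same limit holds on chromosome 3, where 10.5% of the words of Gbp7 also occur in Gm43802. It holds for other members too, such as Gbp8, with 7.37% of its words in Gbp11. These ratios are descriptions, and the difference between the clusters was not tested.

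Interferon receptors and genes of signalling to GBP promoters were described by a list of 17, all tested. It pools genes that pass the signal on with its inhibitors Socs1, Socs3, Usp18 and Ptpn2. With Poly(I:C) in vehicle 10 rose, Socs1 and Usp18 among them, against 7.52% of all tested genes, and 7 were not called. In MSDC 7 rose, again with Socs1 and Usp18, against 4.82%. Irf1, a factor that binds GBP promoters, had log2 fold changes of 1.03 and 0.95. Irf9, the DNA-binding subunit of ISGF3, rose by 1.79 in vehicle and by 2.89 in MSDC, and its interaction of 1.10 was called (adjusted p = 0.0134). With MSDC at rest 11 of the 17 fell, Socs1 and Socs3 among them, against 12.4% of all tested genes, and Ptpn2 rose. With Poly(I:C) present 9 fell, Socs1, Socs3 and Usp18 among them, against 13.6%. Under Poly(I:C), Irf1 was at -0.15 with MSDC (adjusted p = 0.166), Irf8 at -0.92 (adjusted p = 5.95e-08) and Stat2 at -0.29 (adjusted p = 0.0174). Of 9 interferon genes on a second list 3 were in the table and none passed the filter on low counts.

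Of 13 other interferon-inducible GTPases listed, 7 were tested, and Iigp1 and Tgtp2 among them passed the filter through the Poly(I:C) groups alone. The other 5 rose with Poly(I:C) in vehicle (median 2.60), against 7.52% of all tested genes, and in MSDC (median 3.01), against 4.82%. With MSDC at rest these 5 fell (median -0.60), against 12.4% of all tested genes. Under Poly(I:C) 2 of them fell (median of the 5 -0.21), against 13.6%. These were Irgm1 (-0.28, adjusted p = 0.00666) and Gm12250 (-0.76, adjusted p = 8.00e-04). Irgm1 is a regulatory GTPase that guards self membranes. Gvin1, a very large GTPase, had 506 CPM with Poly(I:C) and vehicle and 451 CPM with Poly(I:C) and MSDC (-0.17, adjusted p = 0.426). Gbp2b had at most 3 counts in 2 libraries and Gbp10 at most 1.56 in 1, and neither was tested, and Gbp11 was not analysed here.

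Genes on the path from GBPs to vacuoles and inflammasomes were taken from lists of 13 and 8. Of the 13 vacuole genes 4 rose with Poly(I:C) in vehicle, against 7.52% of all tested genes, and 8 were not called. In MSDC 3 rose, against 4.82%, and 10 were not called. The Irgm genes Irgm1, Irgm2 and Igtp rose in both settings. Atg12 rose in vehicle alone by the call, a difference that was not called in the interaction. Atg7 fell in vehicle (-0.19, adjusted p = 0.0482). With MSDC at rest Irgm1, Irgm2 and Igtp fell, against 12.4% of all tested genes. Atg7 rose by 0.27, and 9 of the 13 were not called. Under Poly(I:C), Irgm1 fell with MSDC (-0.28), against 13.6% of all tested genes, Atg7 rose (0.31) and 11 were not called. Of the 8 inflammasome genes 6 rose with Poly(I:C) in vehicle, against 7.52% of all tested genes, and Il18 fell (-0.31). Among the 6 were Casp4 (the mouse caspase-11 gene, 1.15), Casp1 (0.66) and Gsdmd (0.72). With MSDC under Poly(I:C) 7 of the 8 fell, against 13.6% of all tested genes, with Il1b at -1.52 and Nlrp3 at -0.75. Il18 rose by 0.97. Of the 6 prenylation enzymes edgeR called 0 in each comparison, as did DESeq2, with 2 at an unadjusted p under 0.05 for Poly(I:C) in vehicle and 1 in each other comparison.

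The genes most like each member were found by the root mean square difference of centred log2 CPM over the 8 libraries, among 9073 candidates averaging at least 5 CPM. The nearest were Mndal to Gbp3 (0.082), Trim30a to Gbp2 (0.118), Irf9 to Gbp7 (0.203), Nectin4 to Gbp8 (0.217), Zbp1 to Gbp6 (0.219) and Epsti1 to Gbp5 (0.260). Gbp9 (Oas1g, 0.496) and Gbp4 (Phf11d, 0.672) had no gene as close in these units. The distance is not scaled to the size of a gene's own changes. Its median over all candidates was 2.96 for Gbp9 and 2.44 for Gbp4, against 0.93 for Gbp8, so distances of different members are not directly comparable. Within the family, the closest pair was Gbp3 and Gbp5 at 0.272, and Gbp9 was 1.11 from its nearest member, Gbp4.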

How the data were processed

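RNA of 8 libraries of cultured mouse alveolar macrophages was measured by bulk RNA-seq. Each gene has 3 deposited values per library, in units of expected counts, FPKM and TPM. The expected counts deposited by the authors are read counts per the file headers, not scaled to depth, and 5.95 to 7.19% of a library's values were not whole, so they were rounded. TPM values, scaled to gene length and depth by the authors per the file headers, were used for levels between genes. FPKM values deposited beside them were not used. GRCm38 (mm10), Cuffdiff, Bowtie2 2.3.4 and TopHat2 2.1.1 are listed in the submitters' processing notes, which do not tie them to columns. Symbols that had become dates (23) were repaired from gene identifiers, 99.3% of which are in RefSeq.

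Genes were filtered with filterByExpr (11621 kept), libraries were scaled by TMM, and 1 edgeR 4.0.16 quasi-likelihood model (R 4.3.3) with a term per group was fitted to the 8 libraries together. The call threshold was an adjusted p of 0.05 (Benjamini-Hochberg over all tested genes, two-sided). The SE was derived from the change and its F statistic, and may misstate the error of genes with few counts. The procedure was tested on simulated data. Alternatives (17, plus 1 added after seeing the data) covered scaling, DESeq2 1.42.0, limma 3.58.1 on log2(TPM + 0.1) and log2(TPM + 1), filter, rounding, groups in the fit, a replicate block and each library left out. All 8 members, the genes of the lists and the 3 nearest genes to each member could be named. Members and lists were chosen with earlier results of these data known. Some genes of the lists are not reported here.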

Additional observations from a re-analysis of the deposited data

Results flagged for a closer look

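The interaction of MSDC and Poly(I:C) for Gbp7 differed between the treatments by a test of the difference itself: the response to Poly(I:C) was larger with MSDC by 1.03 on the log2 scale (SE 0.10, edgeR adjusted p = 1.58e-04). Gbp7 went from 39.7 ± 0.821 to 122 ± 1.66 CPM in vehicle and from 15.5 ± 0.178 to 96.9 ± 0.208 CPM in MSDC (SD, n = 2). The value was 1.01 to 1.06 with each library left out, and its adjusted p was at most 0.00935 over the alternatives.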

How the results depend on the processing

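With 2 libraries a group, the unstimulated level of Gbp4 rests on 8 and 1 counts a group, and the libraries of a group at rest differ for Gbp9 (73 and 28 counts in vehicle, 1 and 14 in MSDC) and Gbp5 (19 and 41 in MSDC). In both Poly(I:C) comparisons the 7 members other than Gbp4 were called higher in every one of the 18 alternatives. Leaving out single libraries left 5 to 8 members lower for MSDC without Poly(I:C) and 7 to 8 with it, and DESeq2 gave 6 and 6. Calls of Gbp6 at rest were also lost with limma on log2(TPM + 1) (adjusted p = 0.0673), and under Poly(I:C) with limma on log2(TPM + 0.1) (0.133) and log2(TPM + 1) (0.0911).

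For the interaction, members called higher (1) became 2 with DESeq2, 3 without a filter on low counts, and 1 to 3 with each library left out, the highest without vehicle library 2; members called lower became 1 with limma on log2(TPM + 1). Without the filter Gbp3 (adjusted p = 6.95e-04) and Gbp9 (0.0102) passed. With each library left out, interaction values ran from -1.48 to 2.73 for Gbp4, -0.19 to 0.89 for Gbp5, -0.22 to 0.44 for Gbp6 and -0.10 to 0.24 for Gbp8, so their sign changed, and from 0.64 to 4.27 for Gbp9. The sign also changed for Gbp4 with limma on log2(TPM + 0.1) (-1.39) and log2(TPM + 1) (-1.20, adjusted p = 0.043), and with the latter for Gbp5 (-0.20) and Gbp9 (-0.52). With vehicle library 1 and MSDC library 2 both left out, chosen after seeing the data, the interaction was -2.33 for Gbp4 and -0.15 for Gbp6, and Gbp4 stood at 0.04 for MSDC without Poly(I:C). The cause of these changes was not tested.

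Over all genes, 14 were called higher in the interaction, 3 to 62 with each library left out, 23 with DESeq2, 64 without the filter, and 3 and 7 with limma. For Poly(I:C) in MSDC 560 became 365 without MSDC library 2. Replicate numbers did not pair the libraries (correlations -0.026 to 0.034 over 6 pairs of groups), and the fit with a replicate block changed no member's call, with 8, 8, 7 and 8 members called in the first 4 comparisons and 1 in the interaction.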
